A study of Mus musculus with 6 samples.

Results

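Glycan-building enzymes of the cell surface were followed in mouse CD8 T cells: the genes for sialyl-, fucosyl-, galactosyl-, N-acetylglucosaminyl- and N-acetylgalactosaminyltransferases, carbohydrate sulfotransferases and the enzymes of heparan sulfate. They were taken by gene symbol alone, as the rows of the deposited table whose symbols begin with St3gal, St6gal, St8sia, B3gat, B3gnt, B3galt, B4galt, B4galnt, Extl or C1galt1, with Fut, Galnt, Gcnt, Mgat, Chst or Ndst and a digit, with Hs2st, Hs3st or Hs6st, or are Ext1 or Ext2. These were 82 of the 13883 genes listed. The series measured total RNA by sequencing in 6 libraries, each of 100000 CD8 T cells of wild-type mice, taken from spleen and lymph nodes and activated with antibodies to CD3 and CD28. In the control group, activated cells were kept overnight with 20 mM NaCl, and in the other group with 20 mM DAHB, a compound given only by that name in the labels. Each group had 3 samples. The age and sex of the mice are not stated in the labels, nor whether samples within a group had separate animals or cultures as their source, and p-values therefore cover the spread among these samples alone, which could be technical. Of 124 protein-coding symbols in the GENCODE M21 annotation that match the rule, 42 were not in the table, among them Fut9, St8sia2, Gcnt2, Hs3st1 and Chst4. Genes with few reads had been left out of the table by a filter that is not stated, so such an absence is no measurement.

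Proteins and lipids that pass through the Golgi are given sugar chains by enzymes, most of which add 1 kind of sugar in 1 kind of linkage. Sulfotransferases add sulfate to the chains. N-glycans hang on asparagine and O-glycans on serine or threonine, gangliosides are sialylated glycolipids, and heparan and chondroitin sulfate are long sulfated chains on proteoglycans. On T cells these chains are known to set binding by selectins, galectins and siglecs, and loss of sialic acid from O-glycans, which exposes the galactose of the core, is a known mark of activated and effector CD8 T cells. Because several enzymes act on the same acceptor, the glycan made depends on the levels of competing enzymes as well as on each enzyme by itself. The data here are mRNA levels, and no glycan was measured.

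Library depth over the table's genes ran from 31055613 to 56007582 reads, with NaCl replicate 3 the deepest. The values are read counts divided by a size factor for each library, called normalised read counts here, so a change is one relative to most other genes. The 2 genes of the CD8 receptor summed to 19439 to 20316 normalised counts in the NaCl libraries and 28379 to 30484 in the DAHB libraries. All 7 T cell genes looked at were in the table, and their sum was 63617 to 66307 with NaCl and 56356 to 58092 with DAHB. They did not fall as a set: 2 rose and 2 fell, with a median log2 fold change of 0.068. Cd5, which had the highest count of the 7, fell from a mean of 28287 to 19312. None of the genes listed for NK cells, granulocytes, and red cells or platelets was in the table. Genes listed for other cell types were found at low levels, and the genes of a list did not all move alike. Whether such cells were present was not tested. Both genes of the CD4 list rose and summed to 605 to 618 with NaCl and 1514 to 1818 with DAHB. Most of this was Zbtb7b, at means of 602 and 1574, with Cd4 itself at a mean of 11.6 and 65.5. Of 7 macrophage genes 3 rose, and the sum was 713 to 1312 with NaCl and 1399 to 1682 with DAHB. Cd79b, a B cell gene, stood at 118 to 149 and 549 to 623, and 5 of 6 stromal and endothelial genes, of which 2 rose, summed to 827 to 973 and 1485 to 1558. Most of that sum was Pecam1, at means of 610 and 1108, while Col1a1, Col1a2 and Col3a1 did not pass the test used below. Of 5 dendritic cell genes 3 were in the table, and their sum was 465 to 532 and 348 to 358. Zbtb46 held most of it and fell from a mean of 462 to 316, while Itgax rose from 12.3 to 27.5. The part of these cell types in the results on glycan enzymes was not tested. In RNA from a bulk of cells, a change in the number of cells of a type and a change in RNA per cell cannot be told apart.

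In DAHB-treated cells 32 of the 82 genes rose and 21 fell, and 29 did not pass the test (limma-trend with Benjamini-Hochberg adjustment over 13804 genes, adjusted p under 0.05). Over all genes tested, 29.4% rose and 29.1% fell, 58.5% in all, against 39.0%, 25.6% and 64.6% of the glycan enzyme genes. All 82 passed the filter on low values (10 or more normalised counts in 3 or more libraries), 5 of them (B3gnt7, St6galnac3, B4galnt3, St6galnac2 and Galnt14) through the libraries of 1 group. At least 2-fold changes were called for 11 genes that rose and 3 that fell, where 10.6% and 1.97% of all genes passed the same limits. Of these 11, 4 (B3gnt7, St6galnac3, B4galnt3 and St6galnac2) entered the test through the DAHB libraries alone, in which they were high, so their count and the totals that hold them are a description. In 60 genes (73.2%) the 3 DAHB libraries did not overlap the 3 NaCl libraries, 38 higher and 22 lower; over all genes this was 63.4%, 31.8% and 31.6%. The median log2 fold change was 0.13, against 0.0019 over all genes, and the median size of the change, without its sign, was 0.44 against 0.30. The share that rose varied with abundance. Of 20 genes with a mean below 100 normalised counts 5 rose and 1 fell, where 32.3% and 6.91% of all genes in that range did. Between 100 and 1000 it was 16 and 10 of 33 genes, beside 35.4% and 25.9% of all genes, and from 1000 upwards 11 and 10 of 29, beside 22.9% and 45.3%. The summed count of the 82 genes was 102889 to 104486 with NaCl and 103331 to 105638 with DAHB, so the groups overlapped in this total. Fold changes were taken after adding a pseudocount of 1 and taking log2, which lowers the apparent change of genes with few reads. Means are given ± SD over the 3 libraries of a group, and a change from 1 mean to another runs from NaCl to DAHB.

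**Figure D1:**
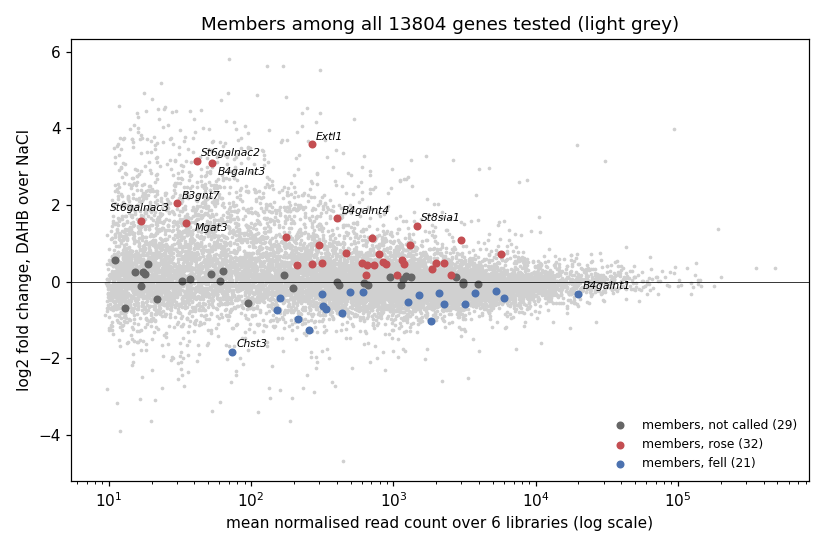
Each point is 1 gene, with the mean normalised read count over the 6 libraries on the horizontal axis (log scale) and the log2 fold change, DAHB over NaCl, on the vertical axis. Light grey points are all 13804 genes tested, and the 82 glycan enzyme genes are coloured by their call, with 32 that rose, 21 that fell and 29 not called; Extl1 stands highest at 3.59 and Chst3 lowest at -1.84.

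The enzymes were sorted by the step they carry out. Over all genes tested 29.4% rose and 29.1% fell, and the counts of each step stand beside these shares. Sialyltransferases had the most genes that rose, 8 of 14, with 4 that fell and a median log2 fold change of 0.46. The 8 include St6galnac2 and St6galnac3, which entered the test through their DAHB libraries alone, so this count is a description. Of 10 heparan sulfate enzymes 4 rose and 1 fell (median 0.12). Of 14 enzymes grouped under N-acetyllactosamine and its extension 4 rose and 3 fell (median 0.13). This group also holds B4galt5, B4galt6 and B3galt4, which are given below as enzymes of gangliosides. Its rises include B3gnt7, which entered the test through its DAHB libraries alone. Of the 5 fucosyltransferases 3 fell and none rose (median -0.32). N-glycan branching had 3 genes that rose and 1 that fell of 6 (median 0.20), and the enzymes that start O-glycans had 5 and 4 of 12 (median -0.0504). The counts of several steps moved with the scaling, that of sialyltransferases to 7 that rose and 5 that fell with the correction for GC content and exon length and that of heparan sulfate to 5 and 1 with quantile normalisation.

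**Figure D2:**
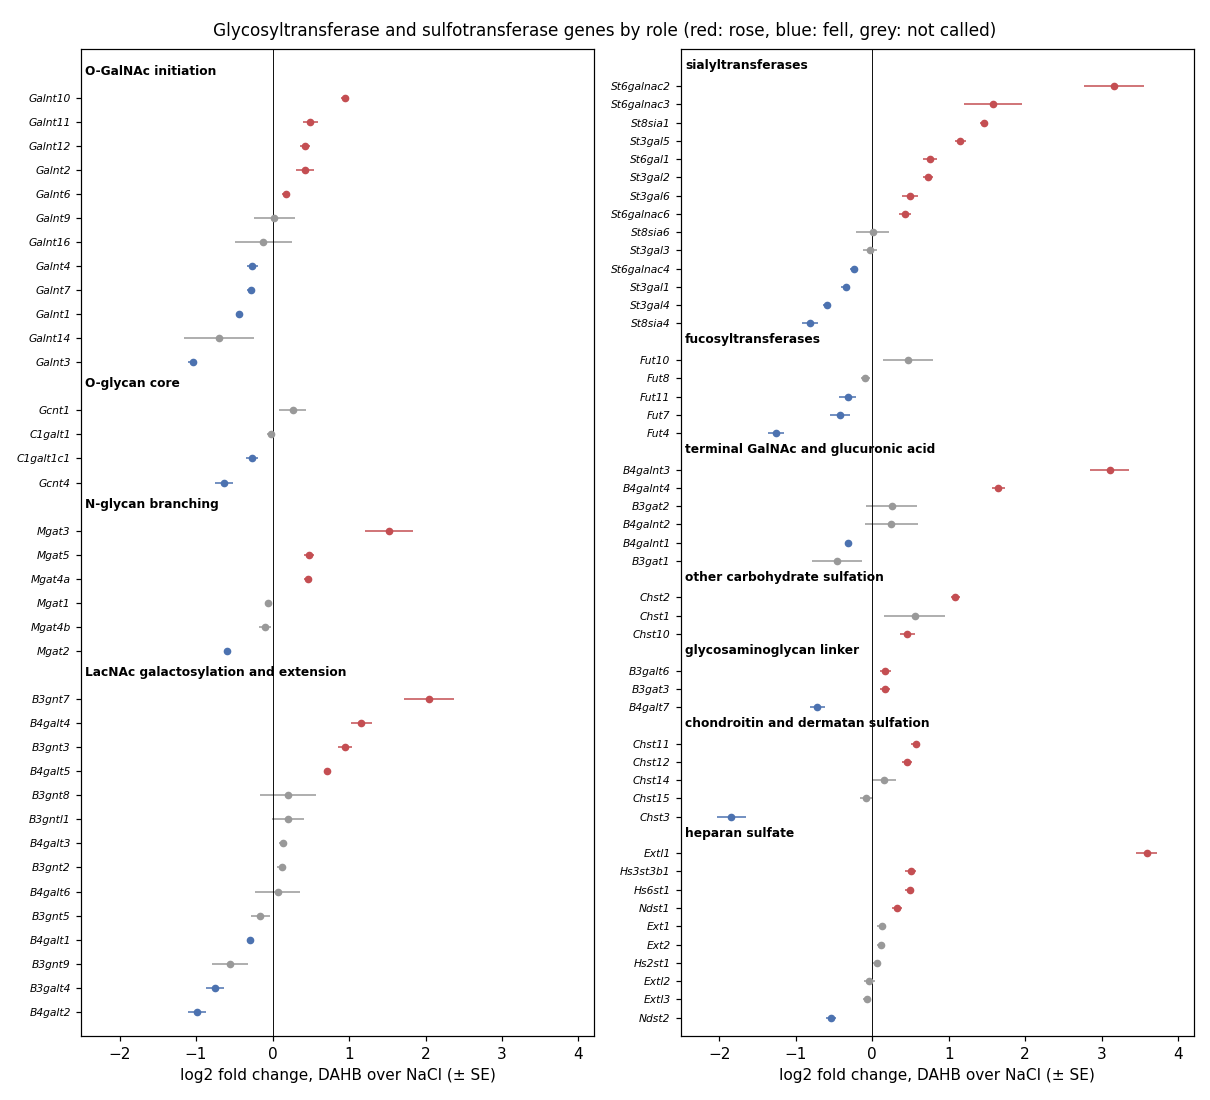
Log2 fold changes, DAHB over NaCl, on the horizontal axis with bars of ± SE, of all 82 genes, listed on the vertical axis by the step they carry out, with red, blue and grey for genes that rose, fell or were not called. Sialyltransferases lie mostly to the right of 0, with 8 of 14 that rose, while no fucosyltransferase that passed the test lies to the right. St6galnac2, St6galnac3, B3gnt7 and B4galnt3 entered the test through their DAHB libraries alone.

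Promoters are shown for 6 of the genes whose mRNA changed most, as the stretch of DNA at which transcription of each begins. Each line holds 250 bases before and 50 after a RefSeq transcription start on GRCm38.p6, read 5′ to 3′ on the strand of the gene. Capitals mark matches, on either strand, to the GC box GGGCGG, the CCAAT box CCAAT, the NF-kB pattern (GGGA and CC with any 4 bases between) and the NFAT pattern TGGAAA. Extl1, B4galnt3, B4galnt4, St3gal5 and St8sia1 rose, and Chst3 fell.
Extl1: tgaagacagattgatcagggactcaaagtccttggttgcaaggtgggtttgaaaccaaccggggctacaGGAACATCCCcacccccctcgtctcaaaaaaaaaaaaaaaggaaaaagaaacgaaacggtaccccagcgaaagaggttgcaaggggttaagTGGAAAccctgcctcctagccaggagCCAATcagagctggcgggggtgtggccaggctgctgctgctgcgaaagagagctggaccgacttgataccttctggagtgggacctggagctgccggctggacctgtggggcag
B4galnt3: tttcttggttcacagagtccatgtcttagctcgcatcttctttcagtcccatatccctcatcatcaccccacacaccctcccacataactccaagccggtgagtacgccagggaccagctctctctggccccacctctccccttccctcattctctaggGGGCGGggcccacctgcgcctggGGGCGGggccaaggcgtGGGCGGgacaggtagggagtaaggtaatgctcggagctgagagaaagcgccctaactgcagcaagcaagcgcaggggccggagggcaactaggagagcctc
B4galnt4: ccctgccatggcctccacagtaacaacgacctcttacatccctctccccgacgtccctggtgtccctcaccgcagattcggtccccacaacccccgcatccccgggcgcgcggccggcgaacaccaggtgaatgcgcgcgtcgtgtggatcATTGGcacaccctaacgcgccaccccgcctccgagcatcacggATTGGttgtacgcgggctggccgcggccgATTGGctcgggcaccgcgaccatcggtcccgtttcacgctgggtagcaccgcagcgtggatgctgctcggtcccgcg
St3gal5: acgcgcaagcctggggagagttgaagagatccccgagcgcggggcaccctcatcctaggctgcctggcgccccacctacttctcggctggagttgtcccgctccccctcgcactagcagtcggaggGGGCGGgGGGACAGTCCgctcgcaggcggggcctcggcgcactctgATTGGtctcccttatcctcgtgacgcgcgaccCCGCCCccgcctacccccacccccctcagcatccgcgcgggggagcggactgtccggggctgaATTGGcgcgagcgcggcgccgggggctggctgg
St8sia1: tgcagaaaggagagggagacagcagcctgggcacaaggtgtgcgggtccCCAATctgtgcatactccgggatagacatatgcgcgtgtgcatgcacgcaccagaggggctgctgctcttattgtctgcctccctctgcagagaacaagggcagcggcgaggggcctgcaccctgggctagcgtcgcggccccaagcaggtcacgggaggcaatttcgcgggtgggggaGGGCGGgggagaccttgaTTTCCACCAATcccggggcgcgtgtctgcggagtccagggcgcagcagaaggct
Chst3: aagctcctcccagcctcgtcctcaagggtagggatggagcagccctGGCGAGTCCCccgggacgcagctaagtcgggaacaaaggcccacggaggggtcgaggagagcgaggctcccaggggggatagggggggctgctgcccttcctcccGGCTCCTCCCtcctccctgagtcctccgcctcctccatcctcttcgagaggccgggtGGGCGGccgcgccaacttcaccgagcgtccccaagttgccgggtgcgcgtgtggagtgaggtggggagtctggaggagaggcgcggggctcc
They lie at chr4:134372498-134372797 on the minus strand (the Extl1 start is inside the annotated span of the gene, not at its end), chr6:120294848-120295147 on the minus strand, chr7:141060728-141061027 on the plus strand, chr6:72097358-72097657 on the plus strand, chr6:142964403-142964702 on the minus strand and chr10:60219211-60219510 on the minus strand, in the order of the lines. The B4galnt3 and B4galnt4 starts lie outside the annotated spans of their genes. With the first transcribed base as 1 and the base before it as -1, B4galnt3 had GC boxes starting at -91, -68 and -51 and none of the other patterns. B4galnt4 had a CCAAT box, read on the opposite strand, at -99, -56 and -27. Extl1 had a CCAAT box at -64, an NFAT pattern at -90 and an NF-kB pattern on the opposite strand at -181. In St3gal5 the NF-kB pattern at -117 lay between GC boxes at -124 and -46, and St8sia1 had CCAAT boxes at -201 and 3. Chst3, which fell, had a GC box at -42 and NF-kB patterns on the opposite strand at -204 and -99. A match is a run of letters and not a binding site.

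Such letters are common. The GC box was found in 35.7% of all 32851 mouse promoters of this length, the CCAAT box in 37.4%, the NF-kB pattern in 20.7% and the NFAT pattern in 21.4%. RefSeq promoters were at hand for 64 of the 82 genes. Of 32 promoters of 26 genes that rose, 59.4% held a GC box, 46.9% a CCAAT box, 34.4% the NF-kB pattern and 28.1% the NFAT pattern. Of 18 promoters of 16 genes that fell, these shares were 77.8%, 44.4%, 22.2% and 11.1%. A further 8 patterns were searched on both strands. The TATA box TATAAA (13.6% of all promoters) and the T-box pattern GGTGTGA (3.98%) were found in none of the promoters of genes that rose or fell. The STAT pattern TTCNNNGAA (8.30% of all) was in none that rose and 16.7% that fell, the RUNX pattern TGTGGT (16.8% of all) in 6.25% and 16.7%, and the ETS pattern CCGGAAG (8.86%) in 3.13% and 5.56%. The AP-1 pattern TGANTCA (7.81%) stood in 6.25% and 5.56%, the E-box CACGTG (7.15%) in 6.25% and none, and the CRE TGACGTCA (1.79%) in 3.13% and none. Patterns can overlap, several promoters can belong to 1 gene, and no test was made of these shares. The shares over all promoters were not limited to genes in the table, so they are no matched comparison.

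The largest rise was in the heparan sulfate group. Extl1, a glycosyltransferase of the exostosin family that can extend heparan sulfate chains (ENSMUSG00000028838, chromosome 4, 134356372 to 134383850, GRCm38), had normalised read counts of 34.0, 39.8 and 47.4 with NaCl and 528, 479 and 469.6 with DAHB. Every DAHB library was above every NaCl library by a wide margin, and the means were 40.4 ± 6.73 and 492 ± 31.2 (SD, n = 3) (log2 fold change 3.59, SE 0.143, adjusted p = 1.50e-10). Per kilobase of exon, Extl1 had the lowest level of its group in both treatments, but with DAHB it came near Ext1. It was at 9.32 ± 1.55 with NaCl and 114 ± 7.21 with DAHB, and Ext1 at 112 ± 4.41 with NaCl and 122 ± 4.86 with DAHB. Ext1 and Ext2, which together form the polymerase of the chain, did not pass the test (log2 fold changes 0.12, adjusted p = 0.105, and 0.11, adjusted p = 0.0600). Ext2 was called higher with quantile normalisation (0.21, adjusted p = 0.00224), with equal library totals (adjusted p = 0.0440) and without NaCl replicate 1 (adjusted p = 0.0442), and Ext1 without DAHB replicate 1 (adjusted p = 0.0484). Extl3, which starts the chain and had the highest count of the group, had 3832, 4194 and 3971 with NaCl and 4007, 3674 and 3747 with DAHB. The groups overlapped in Extl3, and it did not pass the test (log2 fold change -0.07, SE 0.0506, adjusted p = 0.254). Extl2, a relative of Extl3, was at a log2 fold change of -0.037 and did not pass either (adjusted p = 0.699).

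Of the heparan sulfate modifying enzymes, the N-deacetylase and N-sulfotransferase genes moved in opposite directions. Ndst1 rose from 1662 ± 24.9 to 2088 ± 189 (log2 fold change 0.33, SE 0.0633, adjusted p = 0.000528) and Ndst2 fell from 1493 ± 50.7 to 1029.6 ± 97.1 (log2 fold change -0.54, SE 0.0696, adjusted p = 1.37e-05). Hs6st1, which sulfates the 6-O position of glucosamine, rose by 0.49 on the log2 scale, and Hs3st3b1, a 3-O-sulfotransferase, by 0.50. Hs2st1, the 2-O-sulfotransferase, was at a log2 fold change of 0.057 (adjusted p = 0.390). With a correction of each library for GC content and exon length, Ext1 and Hs2st1 were called higher and Extl3 lower (0.30, 0.19 and -0.15), so that 6 genes of the group rose and 2 fell; Hs6st1 then had a log2 fold change of 0.24 and remained called. The level per kilobase summed over the 10 genes went from 2481 ± 38.5 to 2742 ± 102.

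Chondroitin and heparan sulfate share a linker of 4 sugars on serine, and 3 of the enzymes that build it were measured. B4galt7, which adds the first galactose, fell from 418 ± 23.5 to 254 ± 27.4 (log2 fold change -0.72, SE 0.1001, adjusted p = 2.75e-05). B3galt6, which adds the second galactose, rose by 0.17 (adjusted p = 0.0480). B3gat3, which adds the closing glucuronic acid and had the highest count of the 3, had 1045, 991 and 977 with NaCl and 1209.6, 1078 and 1107 with DAHB, and the groups did not overlap (log2 fold change 0.17, SE 0.0630, adjusted p = 0.0317). The rises of these enzymes were near the threshold. That of B3gat3 was -0.21 and called lower after correction for GC content and exon length (adjusted p = 0.00422), and was lost without DAHB replicate 1 (0.0934), DAHB replicate 3 (0.0540), NaCl replicate 2 (0.0802) or NaCl replicate 3 (0.112). That of B3galt6 was lost without DAHB replicate 2 (adjusted p = 0.176), DAHB replicate 3 (0.0975), NaCl replicate 1 (0.102), NaCl replicate 2 (0.126) or NaCl replicate 3 (0.0735). With all libraries kept it was also lost with DESeq2 (0.0879), quantile normalisation (0.165), a pseudocount of 10 (0.0507) and the replicate number as a block (0.0802).

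Genes of chondroitin sulfation moved in opposite directions. Chst3, the sulfotransferase for carbon 6 of N-acetylgalactosamine in chondroitin (chromosome 10, 60181532 to 60219260), had 119.5, 118 and 108 with NaCl and 37.3, 28.7 and 28.9 with DAHB. The DAHB libraries were all lower, and Chst3 had the largest fall of the 82 genes (log2 fold change -1.84, SE 0.188, adjusted p = 1.45e-06). Chst11 and Chst12, which act at carbon 4 of that sugar in chondroitin, rose. Chst7 and Chst13, sorted to the same step, were not in the table. Chst11 had 978, 893 and 910.2 with NaCl and 1399, 1389 and 1338 with DAHB, with no overlap (log2 fold change 0.57, SE 0.0588, adjusted p = 1.64e-06). Chst12 had 788, 724 and 742 with NaCl and 1046, 997 and 1039 with DAHB, again with no overlap (log2 fold change 0.45, SE 0.0623, adjusted p = 2.59e-05; log2 fold change 0.22 after correction for GC content and exon length). Chst15, which adds a further sulfate at carbon 6 to units already sulfated at carbon 4, had 651, 738 and 657 with NaCl and 661, 593 and 687 with DAHB, and the groups overlapped (log2 fold change -0.077, SE 0.0791, adjusted p = 0.432). Chst14, the dermatan sulfotransferase, did not pass the test (0.16, adjusted p = 0.411). Per kilobase of exon the order with NaCl was Chst12, Chst11, Chst15, Chst14 and Chst3, at 318, 168, 101, 77.8 and 17.7, and it was the same with DAHB, at 435, 248.9, 95.8, 86.6 and 4.87.

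Sulfation of glycans outside chondroitin and heparan was led by Chst2, which sulfates N-acetylglucosamine at carbon 6 and is known for its part in L-selectin ligands (chromosome 9, 95399292 to 95406722). Its counts were 1759, 2004 and 1954 with NaCl and 4261, 3963 and 3913 with DAHB. All DAHB libraries lay above all NaCl libraries (log2 fold change 1.09, SE 0.0574, adjusted p = 2.57e-09), and the level per kilobase went from 260.0 ± 17.6 to 552 ± 25.7 (SD, n = 3). Chst10, which sulfates the HNK-1 glycan, rose by 0.46 (adjusted p = 0.001001); with quantile normalisation this was 0.23 and no longer passed (adjusted p = 0.0618). Chst1, the keratan sulfotransferase, had mean counts of 8.79 ± 2.24 with NaCl and 13.4 ± 3.83 with DAHB and did not pass.

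**Figure D3:**
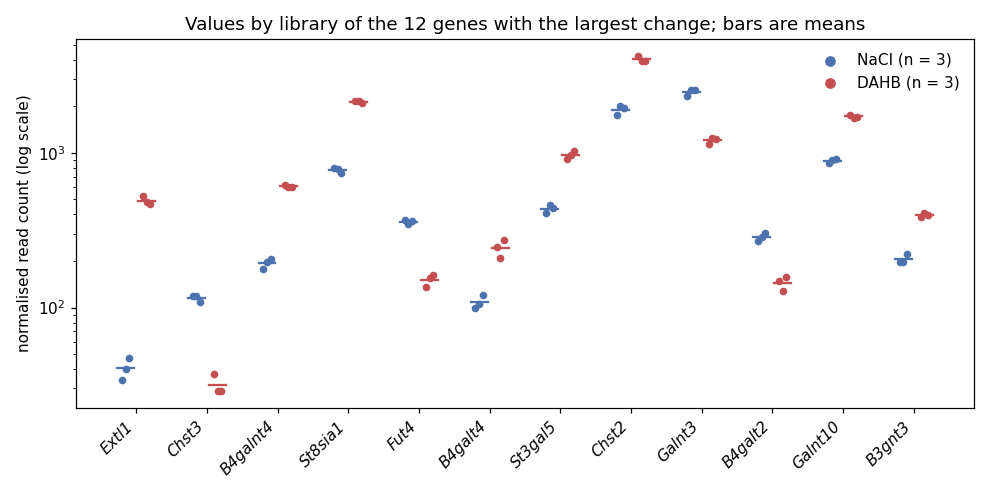
Normalised read counts (vertical axis, log scale) of the 12 genes with the largest change whose higher group had a mean of 100 or more, with 1 point per library, the treatments in separate colours and a bar at the mean of each group of 3. In all 12 genes the groups do not overlap; Extl1 goes from 34.0 to 47.4 with NaCl to 469.6 to 528 with DAHB.

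Gangliosides are built from lactosylceramide by a chain of enzymes in which each makes the substrate of the next. B4galt5, the main lactosylceramide synthase, had 4152, 4444 and 4299 with NaCl and 7446, 7054 and 6702 with DAHB. No library overlapped, and B4galt5 rose (log2 fold change 0.72, SE 0.0490, adjusted p = 2.96e-08). St3gal5, which makes the first ganglioside GM3 (chromosome 6, 72097592 to 72154571), had 410.1, 461 and 438 with NaCl and 919.8, 965 and 1025 with DAHB. Every DAHB library was far above every NaCl library (log2 fold change 1.15, SE 0.0737, adjusted p = 1.51e-08). St8sia1, which turns GM3 into GD3 and so opens the branch of gangliosides with more sialic acids (chromosome 6, 142821545 to 142964452), had 796, 791 and 744 with NaCl and 2166, 2172 and 2098 with DAHB. Replicates differed little beside the gap between the groups (log2 fold change 1.46, SE 0.0550, adjusted p = 7.75e-11).

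The enzyme that follows fell. B4galnt1, which adds N-acetylgalactosamine to GM3 or GD3 and makes GM2 and GD2 (chromosome 10, 127165225 to 127172330), had the highest count of the 82 and also the highest level per kilobase, with counts of 21926, 22311 and 22362 with NaCl and 18216, 17642 and 17458 with DAHB. The DAHB libraries were all lower (log2 fold change -0.32, SE 0.0409, adjusted p = 1.21e-05), and with the correction for GC content and exon length the log2 fold change was -0.67. B4galnt1 made up 21.3% to 21.4% of the summed counts of the 82 genes in the NaCl libraries and 16.8% to 17.2% in the DAHB libraries. Its exons overlap those of Slc26a10, so its reads are uncertain without a stated strand setting. B3galt4, which makes GM1 and GD1b, fell from 192 ± 1.99 to 114 ± 5.62 (log2 fold change -0.75, SE 0.120, adjusted p = 9.40e-05). St3gal2, which can sialylate the outer galactose of gangliosides and core 1 O-glycans, rose by 0.73 (adjusted p = 5.24e-07). St6galnac6, which makes alpha-series gangliosides, was up by 0.42 (adjusted p = 0.000392), a call lost with the correction for GC content and exon length (0.17, adjusted p = 0.0579). B4galt6, the other lactosylceramide synthase, had mean counts of 36.8 ± 11.9 with NaCl and 37.9 ± 9.25 with DAHB and did not pass the test. Ugcg, the glucosylceramide synthase before lactosylceramide and outside the 82 genes, rose by 0.20 (adjusted p = 0.000824).

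Per kilobase of exon, B4galnt1 stood above St8sia1 in every library, but by a smaller margin with DAHB. The log2 ratio of B4galnt1 to St8sia1 was 6.22, 6.25 and 6.34 in the NaCl libraries and 4.51, 4.46 and 4.49 in the DAHB libraries. The difference of the means was -1.79, or a ratio of 77.2 with NaCl and 22.4 with DAHB, with no overlap. The exact permutation test gave a two-sided p = 0.1, the smallest that 3 against 3 libraries allow.

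Sialyltransferases acting on proteins changed in both directions. St3gal4, which caps N-acetyllactosamine with sialic acid at carbon 3 of its galactose, had 2810.3, 2613 and 2779 with NaCl and 1734, 1885 and 1833 with DAHB. All DAHB libraries were lower (log2 fold change -0.59, SE 0.0523, adjusted p = 3.71e-07). St6gal1, which caps the same unit at carbon 6 and makes the ligand of the siglec CD22, had 308, 342 and 382 with NaCl and 571, 587 and 579.5 with DAHB. It went the other way, again with no overlap (log2 fold change 0.75, SE 0.0889, adjusted p = 5.82e-06). The log2 ratio of St6gal1 to St3gal4, per kilobase, was -3.94, -3.68 and -3.61 with NaCl and -2.35, -2.43 and -2.41 with DAHB, a difference of 1.34 (exact permutation test, two-sided p = 0.1, the smallest possible). St3gal4 stayed the more abundant of the pair in every library. St3gal6, which shares the acceptor of St3gal4, rose by 0.49 (adjusted p = 0.00140), and St3gal3 did not pass (-0.024, adjusted p = 0.844) except with the GC and length correction (-0.33, adjusted p = 0.00383). Exons of St3gal4, St3gal6 and St6galnac2 overlap those of other genes in the table, so their values are uncertain without a stated strand setting.

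On O-glycans, St3gal1, the enzyme that caps core 1 in CD8 T cells, fell, with 1691, 1783 and 1605 with NaCl and 1405, 1250.1 and 1330.0 with DAHB. The groups did not overlap (log2 fold change -0.35, SE 0.0609, adjusted p = 0.000205). St6galnac4, which adds a second sialic acid to sialylated core 1 and had the highest count among the 14 sialyltransferases, fell too, with 5507, 5698 and 5814 with NaCl and 4832, 4681 and 4866 with DAHB. This was a small change with no overlap (log2 fold change -0.24, SE 0.0431, adjusted p = 0.000239; -0.15 with quantile normalisation). St6galnac2, which sialylates the core N-acetylgalactosamine, had 5.48, 15.5 and 4.37 with NaCl and 95.5, 67.0 and 61.1 with DAHB, with no overlap (log2 fold change 3.16). St6galnac3 had means of 7.94 ± 2.57 with NaCl and 25.5 ± 6.47 with DAHB (log2 fold change 1.58, or 0.98 with a pseudocount of 10). Both entered the test through their DAHB libraries alone.

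The enzymes of polysialic acid and of related chains were St8sia4, which fell from 554 ± 24.5 to 317 ± 51.8 (log2 fold change -0.81, SE 0.106, adjusted p = 1.48e-05), and St8sia6, which had mean counts of 60.5 ± 9.68 with NaCl and 61.2 ± 14.4 with DAHB and did not pass. Levels per kilobase summed over the 14 sialyltransferases differed little, going from 2878 ± 26.6 to 2923 ± 12.6, while the make-up shifted. St3gal4 held 32.5% ± 0.970 with NaCl and 21.3% ± 0.807 with DAHB. St6galnac4 held 30.4% ± 0.918 with NaCl and 25.3% ± 0.577 with DAHB. St3gal5 held 5.79% ± 0.385 with NaCl and 12.7% ± 0.648 with DAHB, and St8sia1 2.89% ± 0.121 with NaCl and 7.86% ± 0.164 with DAHB.

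**Figure D4:**
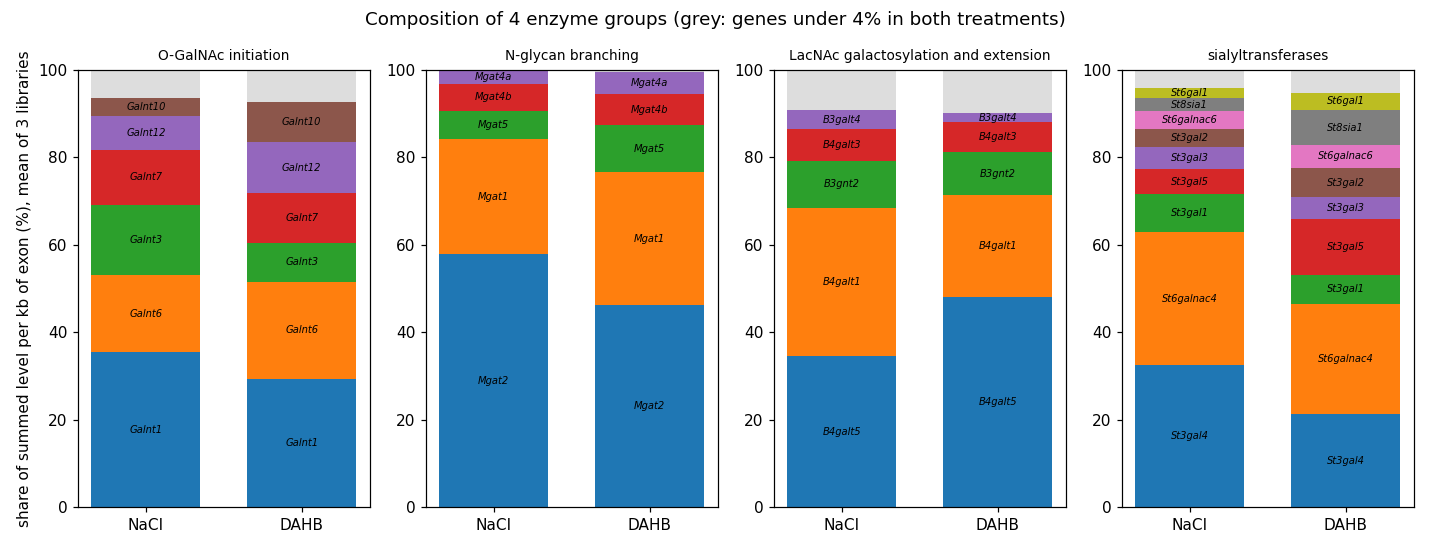
Stacked bars give the share, in %, that each gene held of the level per kilobase of exon summed over its enzyme group, as the mean of 3 libraries, with NaCl on the left and DAHB on the right of each of 4 panels; grey stands for genes under 4% in both treatments. Among sialyltransferases St3gal4 goes from 32.5% to 21.3% and St8sia1 from 2.89% to 7.86%. In the N-acetyllactosamine group, which also holds enzymes of gangliosides, the lactosylceramide synthase B4galt5 takes 48.0% with DAHB where it had 34.6%.

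O-glycans of the mucin type begin with N-acetylgalactosamine added by the Galnt family, of which 12 genes were measured. Galnt1, the most abundant, had 6804, 7041 and 6862 with NaCl and 4824, 5132 and 5342 with DAHB. It was lower in every DAHB library (log2 fold change -0.44, SE 0.0467, adjusted p = 2.29e-06). Galnt3, known for glycosylating the hormone FGF23 (chromosome 2, 66082766 to 66124994), fell the most of the family, with 2329, 2573 and 2558 with NaCl and 1143, 1244 and 1231 with DAHB. The DAHB libraries lay far below the NaCl libraries (log2 fold change -1.04, SE 0.0580, adjusted p = 4.11e-09). Galnt10, an isoform that prefers peptides already carrying a sugar (chromosome 11, 57645442 to 57787514), changed by about as much in the other direction, with 863, 895 and 918 with NaCl and 1770.5, 1694 and 1703 with DAHB, and no overlap (log2 fold change 0.95, SE 0.0551, adjusted p = 6.08e-09). Galnt7, with the same preference, fell by 0.29, and Galnt4 fell by 0.27; both calls were lost with the correction for GC content and exon length (adjusted p = 0.0790 and 0.0516). Exons of Galnt4 also overlap those of Poc1b on the same strand.

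The other genes of the family that rose were Galnt11 (0.49), Galnt12 (0.42), Galnt2 (0.42) and Galnt6 (0.18). Of these, the call of Galnt2 was lost with the GC and length correction (0.23, adjusted p = 0.0937) and with quantile normalisation (0.14, adjusted p = 0.330), and that of Galnt6 with the first of these (0.016, adjusted p = 0.769). Galnt11 was at 0.33 with quantile normalisation and Galnt12 at 0.27 with the GC and length correction, both still called. The balance of 5 that rose and 4 that fell turned to 4 and 5 with quantile normalisation and was 3 and 2 with the GC and length correction. Galnt9, Galnt14 and Galnt16 had means under 35 in both groups and did not pass. With quantile normalisation Galnt14 was called lower (-1.28, adjusted p = 0.0416). Of the level per kilobase summed over the family, Galnt1 held 35.5% ± 0.0753 with NaCl and 29.4% ± 1.19 with DAHB, Galnt3 16.1% ± 0.712 with NaCl and 8.76% ± 0.394 with DAHB, and Galnt10 4.25% ± 0.136 with NaCl and 9.18% ± 0.306 with DAHB.

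The next step makes the O-glycan core. C1galt1, the core 1 galactosyltransferase, had 3168, 3064 and 3161 with NaCl and 2867, 3219 and 3179.5 with DAHB, and the groups overlapped (log2 fold change -0.021, SE 0.0522, adjusted p = 0.752). With the correction for GC content and exon length the sign turned and C1galt1 was called higher (0.20, adjusted p = 0.000679). C1galt1c1, the chaperone that C1galt1 needs, fell from 541 ± 11.3 to 448 ± 26.9 (log2 fold change -0.27, SE 0.0770, adjusted p = 0.00757), a call lost with that correction (adjusted p = 0.412). Gcnt1, the core 2 enzyme that is known to rise in activated T cells and whose product extended chains on selectin ligands are built on, was low, with 54.8, 54.2 and 64.9 with NaCl and 68.1, 74.4 and 66.6 with DAHB. Every DAHB library was above every NaCl library, yet the difference did not pass the test (log2 fold change 0.27, SE 0.178, adjusted p = 0.220). Gcnt4, a second core 2 enzyme, fell from 386 ± 33.1 to 249.4 ± 36.6 (log2 fold change -0.64, SE 0.115, adjusted p = 0.000275). None of the 4 core genes rose and 2 fell, but after the GC and length correction C1galt1 and Gcnt1 (0.46, adjusted p = 0.0361) were called higher, and of the 4 only Gcnt4 lower. Gcnt1 and St3gal1 compete for core 1. Their log2 ratio, Gcnt1 to St3gal1 per kilobase, was -4.67, -4.76 and -4.36 with NaCl and -4.10, -3.80 and -4.05 with DAHB (difference 0.62, exact permutation test, two-sided p = 0.1, the smallest possible). With quantile normalisation this difference was 0.076.

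N-glycans gain antennae from the Mgat enzymes. Mgat2, which makes the second antenna and was the most abundant, had 3965, 3637 and 3874 with NaCl and 2422, 2616 and 2587 with DAHB. All DAHB libraries were lower (log2 fold change -0.59, SE 0.0508, adjusted p = 2.80e-07). Mgat5, whose branch carries ligands of galectins that hold the T cell receptor apart, had 1587, 1779 and 1624 with NaCl and 2479.5, 2282 and 2184 with DAHB. It rose, with no overlap (log2 fold change 0.48, SE 0.0613, adjusted p = 1.33e-05), while its exons overlap those of Tmem163. Mgat4a, which makes another branch, rose by 0.46 (adjusted p = 1.08e-05). Mgat3, which adds the bisecting sugar that stops further branching, rose from a low level, with 15.4, 23.2 and 13.1 with NaCl and 50.5, 34.0 and 72.2 with DAHB (log2 fold change 1.52, SE 0.318, adjusted p = 0.000927). The DAHB libraries spread widely in Mgat3, and none overlapped a NaCl library. Mgat1, the first of the series, and Mgat4b did not pass (log2 fold changes -0.058 and -0.10). With the GC and length correction both were called lower (-0.29, adjusted p = 3.36e-05, and -0.45, adjusted p = 0.000142), so that 3 rose and 3 fell in place of 3 and 1.

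As Mgat2 fell, the level per kilobase summed over the 6 branching enzymes went from 2531 ± 49.97 to 2103 ± 28.6 (SD, n = 3), and the share of Mgat2 in it was 57.8% ± 1.73 with NaCl and 46.2% ± 1.34 with DAHB. The log2 ratio of Mgat5 to Mgat3, per kilobase, was 5.46, 5.06 and 5.71 with NaCl and 4.45, 4.89 and 3.76 with DAHB, a difference of -1.04. The libraries did not overlap (exact permutation test, two-sided p = 0.1, the smallest possible), and Mgat5 remained above Mgat3 in each.

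N-acetyllactosamine, the unit that antennae end in, is made by several of the B4galt enzymes. B4galt1, the main one, fell from 4133 ± 44.5 to 3371 ± 68.0 (log2 fold change -0.29, SE 0.0429, adjusted p = 4.25e-05; -0.19 with quantile normalisation). B4galt2 had 269.7, 284 and 305 with NaCl and 149, 128 and 157 with DAHB and was lower in every DAHB library (log2 fold change -0.99, SE 0.117, adjusted p = 6.11e-06), with exons that overlap those of Slc6a9. B4galt4, known to act on sulfated N-acetylglucosamine, had 99.8, 105 and 120.4 with NaCl and 248, 210.5 and 273 with DAHB. Replicates of B4galt4 varied in both groups, but the groups did not overlap (log2 fold change 1.16, SE 0.135, adjusted p = 5.20e-06). B4galt3 had a log2 fold change of 0.14 and missed the threshold (adjusted p = 0.0584), which it passed without NaCl replicate 2 (adjusted p = 0.0446). With all libraries kept B4galt3 also passed with edgeR (0.0493), quantile normalisation (0.0312) and the GC and length correction (0.0115). The group of 14 in which these genes were counted includes the lactosylceramide synthase B4galt5. Of its summed level per kilobase, B4galt5 held 34.6% ± 0.983 with NaCl and 48.0% ± 1.57 with DAHB. B4galt1 held 33.9% ± 0.730 with NaCl and 23.3% ± 0.911 with DAHB.

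Extension of the chain needs N-acetylglucosamine added by the B3gnt enzymes. B3gnt3, which extends core 1 O-glycans, had 196, 198 and 222 with NaCl and 383, 410.3 and 395 with DAHB. No library overlapped (log2 fold change 0.95, SE 0.0954, adjusted p = 1.31e-06). B3gnt7, known for its part in keratan sulfate, entered the test through its DAHB libraries alone, with means of 11.2 ± 3.62 with NaCl and 49.6 ± 14.5 with DAHB (log2 fold change 2.05). B3gnt2, the main poly-N-acetyllactosamine enzyme, did not pass the test (0.12, adjusted p = 0.0862), and neither did B3gnt5, B3gnt8 or B3gntl1. B3gnt2 was called higher with the GC and length correction (adjusted p = 0.0153) and with quantile normalisation (adjusted p = 0.0304). B3gnt5 was called lower with quantile normalisation (-0.45, adjusted p = 0.00720). B3gnt9 had 122, 106 and 106 with NaCl and 119.6, 58.5 and 59.9 with DAHB, so DAHB replicate 1 lay with the NaCl libraries. It missed the threshold (log2 fold change -0.56, SE 0.235, adjusted p = 0.0539), and without that library the log2 fold change was -0.90 (adjusted p = 0.000392). With all libraries kept it was called lower with the GC and length correction (-0.79, adjusted p = 0.00605) and with quantile normalisation (-0.99, adjusted p = 0.00348). The 14 genes had 4 that rose and 3 that fell, 6 and 5 with quantile normalisation and 6 and 4 with the GC and length correction.

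Fucosyltransferases fell or did not pass. Fut4 (chromosome 9, 14748320 to 14752393) and Fut7 make the fucosylated ends of selectin ligands on leukocytes. Fut4 had 371, 346 and 362 with NaCl and 135, 154 and 162 with DAHB, far apart between the groups (log2 fold change -1.25, SE 0.107, adjusted p = 2.47e-07). Fut7 fell from 184 ± 11.7 to 138 ± 17.2 (log2 fold change -0.42, SE 0.131, adjusted p = 0.0125), and the call was lost without DAHB replicate 2 (-0.32, adjusted p = 0.0611) or NaCl replicate 3 (-0.39, adjusted p = 0.0541); its log2 fold change was -0.77 with quantile normalisation and -0.70 with the GC and length correction. Fut11 fell by 0.32 (adjusted p = 0.0164), at -0.50 with quantile normalisation, and the call was lost without DAHB replicate 1 (adjusted p = 0.0589), NaCl replicate 1 (0.0513) or NaCl replicate 2 (0.0579). Fut8, which adds the core fucose of N-glycans and had the highest count of the 5, had 1218, 1164 and 1127 with NaCl and 1059, 1126 and 1113 with DAHB, and the groups did not overlap but met closely, so that it did not pass the test (log2 fold change -0.089, SE 0.0582, adjusted p = 0.208). Fut10 was low and did not pass. Per kilobase the 5 genes summed to 399.9 ± 9.42 with NaCl and 305 ± 13.1 with DAHB (SD, n = 3).

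Terminal N-acetylgalactosamine is placed on N-acetylglucosamine by B4galnt3 and B4galnt4, which make the LacdiNAc unit in place of N-acetyllactosamine. Both rose. B4galnt4 (chromosome 7, 141061104 to 141072400) had 177, 198 and 206 with NaCl and 621, 602 and 601 with DAHB, well apart between the groups (log2 fold change 1.65, SE 0.0902, adjusted p = 3.56e-09). B4galnt3 had 10.96, 7.74 and 12.5 with NaCl and 102, 82.9 and 102 with DAHB, with no overlap (log2 fold change 3.10), and entered the test through its DAHB libraries alone. B4galnt2, which makes the Sda antigen, was at mean counts of 15.8 ± 4.54 with NaCl and 18.9 ± 5.16 with DAHB, and B3gat1 and B3gat2, which make the HNK-1 glycan, went from 25.2 ± 6.90 to 18.1 ± 5.19 and from 13.9 ± 1.80 to 16.7 ± 1.97. None of these 3 passed the test, though with quantile normalisation B3gat1 was called lower (-0.97, adjusted p = 0.0246), giving 2 that rose and 2 that fell in place of 2 and 1.

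**Figure D5:**
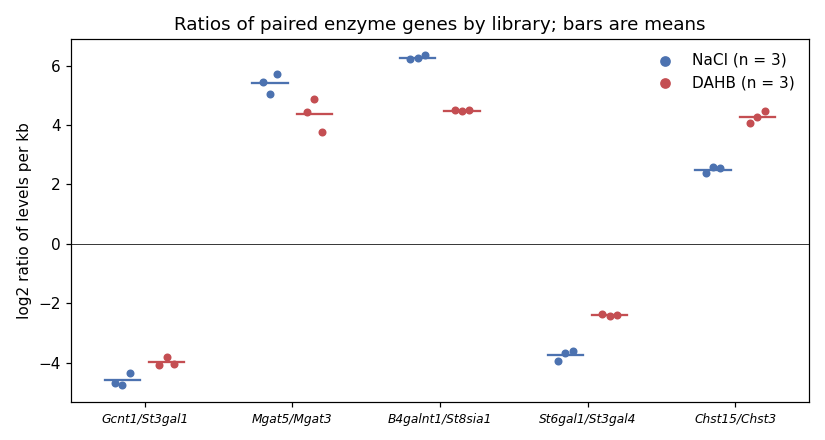
Log2 ratio of the levels per kilobase of exon of 5 pairs of enzymes that share an acceptor or a chain, on the vertical axis, with 1 point for each of the 6 libraries, NaCl and DAHB in separate colours and a bar at each mean of 3. In all 5 pairs the groups do not overlap; the ratio of B4galnt1 to St8sia1 goes from a mean of 6.27 to 4.49 and that of Chst15 to Chst3 from 2.498 to 4.26.

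The last pair was Chst15 and Chst3, which both sulfate carbon 6 of N-acetylgalactosamine but on different units. Their log2 ratio, Chst15 to Chst3 per kilobase, was 2.38, 2.58 and 2.54 with NaCl and 4.05, 4.27 and 4.47 with DAHB, a difference of 1.77 (exact permutation test, two-sided p = 0.1, the smallest possible). In linear terms Chst15 was 5.65 times Chst3 with NaCl and 19.2 times with DAHB. Chst15 by itself did not pass the test, as given above. Over the 5 pairs the raw p was the same, so no adjustment over them brings any under 0.05.

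Genes that supply the donors of these enzymes changed in both directions. Of 27 genes of nucleotide sugar and sialic acid synthesis in the table, 11 rose and 8 fell (median log2 fold change 0.033). Over all genes tested 29.4% rose and 29.1% fell. On the route to UDP-N-acetylglucosamine the first enzyme was split between its genes: Gfpt2 rose by 1.47 from a low level, and Gfpt1, which had the higher count, was at a log2 fold change of -0.49 (adjusted p = 4.99e-07). Uap1, the last step of that route, fell from 3642 ± 20.4 to 2049.8 ± 62.3 (log2 fold change -0.83, SE 0.0458, adjusted p = 3.87e-09). Of the phosphomannomutases, Pmm1 rose from 1343 ± 71.5 to 3423 ± 81.4 (log2 fold change 1.35, SE 0.0528, adjusted p = 1.20e-10), and Pmm2 fell from 1163 ± 47.1 to 741 ± 67.6 (log2 fold change -0.65). On the sialic acid route Nans and Cmas rose (0.54 and 0.44), while Gne, its first enzyme, and Cmah, which makes the N-glycolyl form, fell (-0.15 and -0.31); these 4, Gfpt1 and Pmm2 were named after their values were seen. Of 12 transporters that bring donors into the Golgi, 2 rose and 4 fell (median -0.084), and the largest changes were in Slc35a1, the CMP-sialic acid transporter (-0.49, adjusted p = 3.84e-05), Slc35b3, a transporter of the sulfate donor (-0.46), and Slc35d1 (-0.34).

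Of the proteins that carry these glycans, 8 of 13 measured rose and 3 fell (median 0.29), where 29.4% of all genes rose and 29.1% fell. Sdc4, a heparan sulfate proteoglycan, fell from 1236 ± 73.9 to 309 ± 39.7 (log2 fold change -2.001, SE 0.0910, adjusted p = 5.58e-10), Sdc3, another syndecan, rose by 0.69 (adjusted p = 0.000516), and Cd24a, a small mucin-like protein, fell by 0.68. Of 11 glycan-binding receptors in the table, 6 rose and 4 fell (median 0.28), or 4 and 4 with quantile normalisation. Sele and Selp, selectins that bind sialylated and fucosylated glycans, fell from 857 ± 137 to 32.4 ± 5.08 (log2 fold change -4.68, SE 0.149, adjusted p = 1.90e-11) and from 1452 ± 129 to 294 ± 29.9 (log2 fold change -2.30, SE 0.0881, adjusted p = 9.36e-11). Lgals3, a galectin that binds N-acetyllactosamine on Mgat5 branches, rose from 522 ± 29.4 to 1714 ± 187 (log2 fold change 1.71, SE 0.0792, adjusted p = 6.75e-10).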

How the data were processed

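Total RNA of 6 samples was sequenced. The submitters' processing notes name featureCounts 1.5.2, STAR 2.5.2b, Trimmomatic 0.36 and DESeq2, with the GRCm38 build; the annotation release and strand setting are not given in the sources used here. The values the authors deposited are a normalised signal, a read count per gene over 1 size factor for each library. In every library 100% of values were whole multiples of 1 read (tolerance 0.001), and library depths of 31055613 to 56007582 reads followed. The lowest sum over the libraries was 61 reads. Libraries of a group differed beyond sampling noise.

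Genes at 10 or more in at least 3 libraries (13804) were tested by limma-trend (limma 3.58.1, R 4.3.3) on log2(value + 1), two-sided, without covariates, with Benjamini-Hochberg adjustment over all of them and a threshold of 0.05; the procedure was tested on simulated data. Whole-read tests used edgeR 4.0.16 (8084 genes called) and DESeq2 1.42.0 (7670), against 8071 with limma. Other alternatives were pseudocounts of 0.5 and 10, no filter, a minimum of 50, quantile normalisation, equal totals, a robust prior, correction for GC content and exon length (13776 genes), a replicate block and leaving out each library. Leaving out genes with overlapping exons, and genes with a mean under 100, were added after seeing the data. Log2 ratios of pairs were tested by exact permutation over libraries.

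Levels per kilobase are normalised counts over the summed exon length in GENCODE M21, which also gave coordinates, in which 13859 gene identifiers were found. Exons of 13 of the 82 genes overlap those of another gene in the table; without a stated strand setting their reads cannot be told apart. Values in every library were given for the 12 called genes with the largest change whose higher group had a mean of 100 or more, for the highest in each step and for both genes of each pair; a few others were added after their values were seen. From each list outside the 82, up to 3 genes were taken by the same limits. The members, lists, steps and pairs were chosen with earlier results of these data known. Promoter sequences are from RefSeq. Python 3.11.15 was used with matplotlib 3.10.9, scipy 1.17.1 and pandas 2.3.3.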

Additional observations from a re-analysis of the deposited data

How the results depend on the processing

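Of the 53 genes called, 50 were tested under all 17 alternatives, and 39 of these kept their call and direction in each; B3gnt7, Mgat3 and St6galnac3 were not tested with the minimum of 50 and kept theirs in the others. B3gat3 changed sign, to -0.21, and C1galt1, not called otherwise, was at 0.20, both with the correction for GC content and exon length; the cause was not tested. That correction and quantile normalisation moved the most genes: 6 and 3 calls were lost and 11 and 7 gained. Of the 82 genes 29 to 34 rose and 21 to 25 fell over the alternatives on all libraries, and 30 to 32 rose and 20 to 21 fell with 1 library left out. Without the genes whose exons overlap another gene 29 rose and 17 fell, and among genes with a mean of at least 100 these counts were 27 and 20. Deviations of same-numbered libraries from their group means had correlations of -0.049, -0.15 and 0.040. Around means of 3 libraries such values cannot settle whether the numbers pair the libraries. With the replicate number as a block, 31 rose and 22 fell. B3galt6 then lost its call (adjusted p = 0.0802) and B3gnt9 was called lower (adjusted p = 0.0251). The difference in log2 ratio with quantile normalisation was 0.076 for Gcnt1 to St3gal1, 1.15 for St6gal1 to St3gal4 and 2.14 for Chst15 to Chst3. Groups of 3 give exact p-values no lower than 0.1. Fold changes of genes with few reads in a group can depend on the pseudocount. That of St6galnac3, low with NaCl, went from 1.58 to 0.98 on the log2 scale with a pseudocount of 10.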

Other observations

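Genes that act before and after the 82 enzymes also changed. The counts of each list below stand beside 29.4% that rose and 29.1% that fell over all genes tested. Of 9 enzymes that trim N-glycans before branching, 6 fell and 1 rose, with a median log2 fold change of -0.19. Mogs, the glucosidase that begins the trimming, fell from 9773 ± 394 to 6058 ± 31.9 (log2 fold change -0.69, SE 0.0432, adjusted p = 1.30e-08), and Man1b1, a mannosidase of the early secretory pathway, fell from 2530.4 ± 109.6 to 1638 ± 43.1 (log2 fold change -0.63, SE 0.0514, adjusted p = 1.74e-07). Man1c1, a Golgi mannosidase of low level, rose from 67.2 ± 21.6 to 189.9 ± 17.8 (log2 fold change 1.53, SE 0.203, adjusted p = 1.77e-05). Quantile normalisation gave 2 that rose and 5 that fell. The summed counts of the 9 genes were 48881 to 49547 with NaCl and 39162 to 39750 with DAHB, without overlap.

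Of 22 lysosomal or extracellular enzymes that take glycans apart, 10 rose and 4 fell, with a median log2 fold change of 0.13. Naglu, which removes N-acetylglucosamine from heparan sulfate, rose from 343 ± 19.5 to 714 ± 26.5 (log2 fold change 1.06, SE 0.0776, adjusted p = 5.99e-08). Arsb, which removes sulfate from carbon 4 of N-acetylgalactosamine in dermatan sulfate, rose from 203 ± 29.9 to 409 ± 29.2 (log2 fold change 1.01, SE 0.117, adjusted p = 4.99e-06). Hpse, the heparanase, rose from 125 ± 20.5 to 242 ± 45.2 (log2 fold change 0.95, SE 0.162, adjusted p = 0.000179). Gusb, which had the highest count of the 22 and was named after its values were seen, went the other way. It fell from 5378 ± 123 to 3062 ± 183 (log2 fold change -0.81, SE 0.0506, adjusted p = 1.19e-08). The summed counts of the 22 genes overlapped between the groups, at 23267 to 24512 with NaCl and 22810 to 24058 with DAHB.

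Of 12 glycosaminoglycan backbone enzymes with symbols outside the rule, 6 fell and 2 rose (median -0.13). Chpf, a chondroitin polymerising factor, fell by 0.63, and Chsy1, a chondroitin synthase, and Pxylp1, the xylose phosphatase of the linker, rose by 0.71 and 0.83. Of 22 other glycosyltransferases outside the rule, 11 fell and 4 rose (median -0.13). Pomgnt2, an enzyme of O-mannose glycans, rose from 52.5 ± 16.3 to 261 ± 19.4 (log2 fold change 2.33, SE 0.187, adjusted p = 1.40e-07), while Pomt1, which starts those chains, fell by 0.55 and B3glct, which extends O-fucose, fell by 0.63.

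Of 28 genes that build the N-glycan precursor and transfer it, 5 rose and 6 fell (median 0.010), or 8 and 5 with quantile normalisation, so the direction of the balance depended on the scaling. Alg6, a glucosyltransferase, rose by 0.86, and Alg9, a mannosyltransferase, and Dolk, the dolichol kinase, were at -0.86 and -0.60, both called lower. Of 13 genes of Golgi trafficking and ion balance, 3 rose and 4 fell (median 0.0088), turning to 5 and 2 with quantile normalisation. Cog1 and Cog6, subunits of the complex that returns glycosyltransferases within the Golgi, moved in opposite directions (-0.41 and 0.33), and Slc39a9, a zinc transporter, was called lower (-0.34).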
